A study of Felis catus with 15 samples.

Results

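The genes described are the amino acid and neurotransmitter transporters of the solute carrier (SLC) superfamily. They were chosen by symbol as every domestic cat gene named SLC1A, SLC3A, SLC6A, SLC7A, SLC36A, SLC38A or SLC43A followed by a number, which gave 58 of the 38995 genes in the count table. Transcripts were measured by RNA-seq of messenger RNA in the mid-duct segment, or corpus, of the Felis catus epididymis, in 15 libraries that form 3 groups of 5. The first group is fresh tissue, the second is explants (pieces of tissue kept in culture), and the third is explants cultured with extracellular vesicles from the caput, where the duct begins. The series asked what such vesicles do to the transcripts of corpus explants, with fresh tissue as a control. No genotype, breed, age or dose is given in the labels, and the codes D0 (fresh) and D3 (both cultures) are not explained there. Libraries are named here by group and replicate number: fresh 1, culture 3, vesicle culture 4. The labels do not say whether the replicates are separate animals, so p-values measure only the spread between these samples.

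Amino acids cross membranes through carriers that differ in substrate and in driving force. SLC1A carriers take up glutamate or exchange small neutral amino acids, and SLC38A carriers move glutamine and other neutral amino acids with sodium. SLC7A light chains reach the plasma membrane bound to an SLC3A heavy chain, except for the cationic branch of the family, which acts alone. Of the SLC36A carriers, SLC36A1 and SLC36A2 are coupled to protons. SLC43A carriers are facilitative, and SLC6A carriers use sodium and chloride to take up transmitters, osmolytes such as taurine and betaine, creatine or amino acids. The epididymis, the duct in which sperm mature, is known for a lumen rich in organic solutes, glutamate, taurine and carnitine among them.

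Each library held 17308832 to 27420218 counts, with the ranges of the 3 groups overlapping. Culture 3 stood apart: 13 mitochondrial genes took 0.179% of its counts, against 6.23% to 7.48% in the other 4 cultures. Of 12 listed markers of principal cells, the main secretory cells of the duct, all 12 were present in fresh tissue and all 12 were lower in culture. Their summed level was 28384 to 36014 CPM (the count scaled to a common library size) over the fresh libraries, 1110 to 3401 over the cultures and 2245 to 3608 over the vesicle cultures. All 8 tested basal cell markers were higher in culture, with sums of 428 to 719 CPM in fresh tissue and 2855 to 11110 in culture. Markers of dividing cells summed to 36.2 to 53.6 CPM in fresh tissue and 249.6 to 426 in culture, with 7 of 8 higher. No marker of these 3 lists was at 0 in any group. Of 6 tested neutrophil markers 5 were higher in culture and 1 was lower, with sums of 5.46 to 9.12 CPM in fresh tissue and 309 to 1562 in culture. Of the 8 listed, S100A9 was at 0 in fresh tissue and CSF3R in vesicle culture. All 6 tested sperm markers were lower (34.3 to 79.9 CPM in fresh tissue, 5.19 to 10.6 in culture), with CAPZA3 and AKAP4 at 0 in culture. Clear cell markers summed to 226 to 427 CPM in fresh tissue and 52.4 to 129 in culture, with 1 of 7 higher, 2 lower and none at 0 in a group. The part of these shifts in the transporter results was not tested, and in bulk tissue fewer cells of a type and less RNA per cell cannot be told apart.

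Of the 58 transporters, 35 had a count in every library and 50 passed the filter on low counts. The 8 left out were SLC6A11, SLC6A18 and SLC7A10, at 0 counts in all 15 libraries, and SLC6A13 (7 counts in all), SLC6A19 (14), SLC1A6 (28), SLC6A5 (53) and SLC7A9 (79). In edgeR's quasi-likelihood test with Benjamini-Hochberg adjustment over 18038 genes, called at an adjusted p under 0.05, 20 of the 50 were higher in culture than in fresh tissue (40%). Among all tested genes 28.7% were higher. Another 12 transporters were lower (24%, against 25.6% of all genes) and 18 were not called. Called either way were 64% of the transporters and 54.3% of all genes. The median log2 fold change was 0.63 over the transporters and 0.0351 over all genes. The levels of culture and fresh tissue did not overlap for 24 of the 50 (48%, against 40.5% of all genes).

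**Figure D1:**
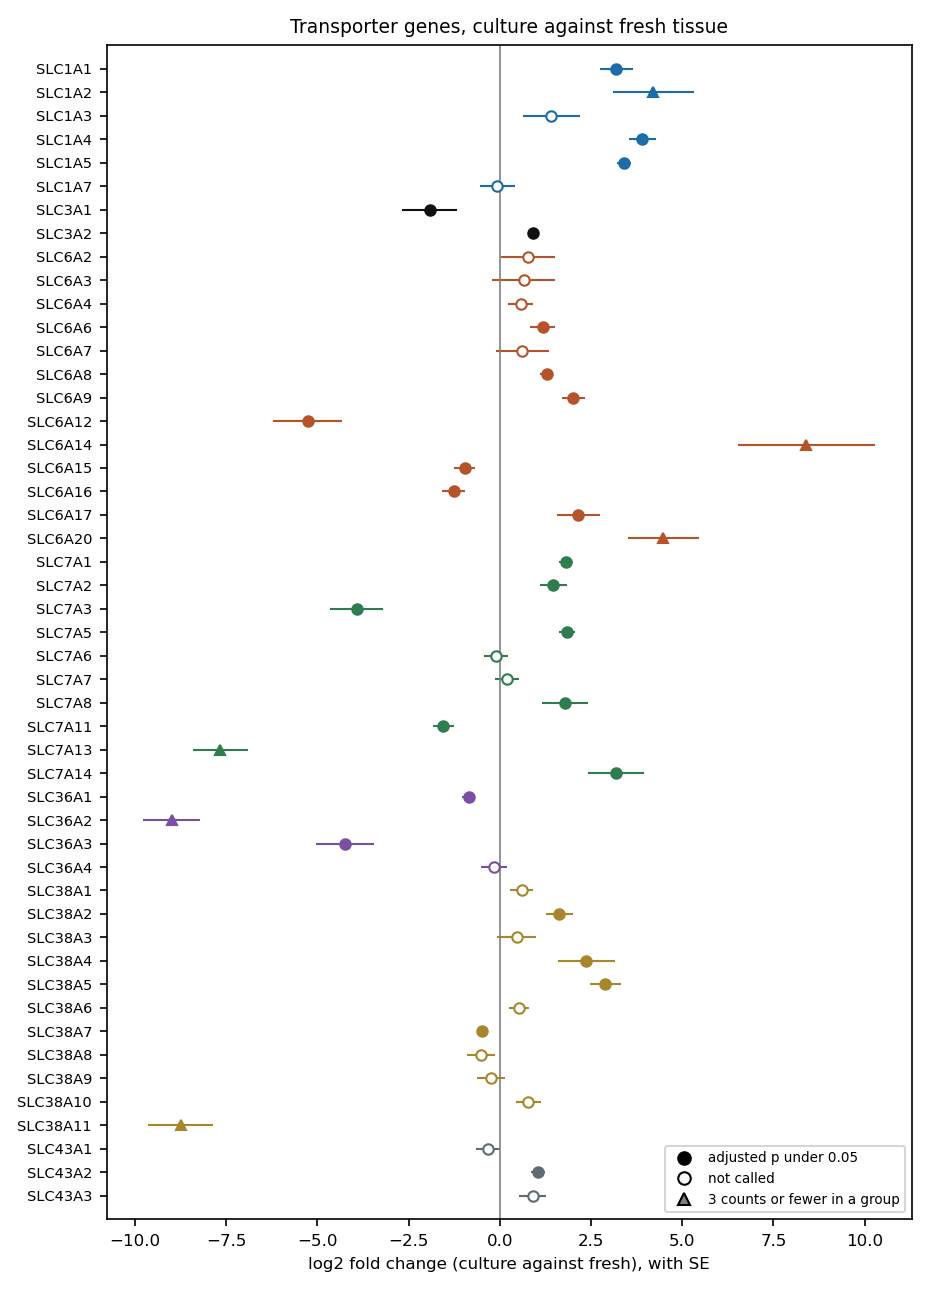
Log2 fold change of tested transporters in culture against fresh tissue, by family, with 5 libraries in each group. Each point is 1 gene with its SE, colours mark families, filled points are called genes, and triangles are genes with 3 counts or fewer in a group, whose fitted value is no bound. SLC1A has 4 called higher and 0 lower of 6, and SLC36A has 0 higher and 3 lower of 4. Of all tested genes 28.7% were called higher and 25.6% lower.

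Counts by family are to be read against the 28.7% of all tested genes that were higher in culture and the 25.6% that were lower. No difference between families was tested. In SLC1A, 4 of 6 tested members rose in culture, none fell and the median was 3.30. In SLC7A, 5 of 10 rose and 3 fell, with a median of 0.83. In SLC6A, 6 of 14 rose and 3 fell (median 0.71), and in SLC38A 3 of 11 rose and 2 fell (median 0.53). In SLC36A none rose and 3 of 4 fell, with a median of -2.55. One heavy chain of SLC3A rose and the other fell, and in SLC43A 1 of 3 rose. Called either way were 66.7% of SLC1A, 100% of SLC3A, 64.3% of SLC6A, 80% of SLC7A and 75% of SLC36A. For SLC38A and SLC43A the shares were 45.5% and 33.3%, below the 54.3% of all genes.

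Among the SLC1A carriers, the neutral amino acid exchangers were far more abundant in both cultures than in fresh tissue. SLC1A5 (gene 101090567), which exchanges glutamine and other neutral amino acids, was at 11.3, 7.59, 13.4, 8.2 and 7.16 CPM in fresh 1 to 5 and at 76.3, 89, 125, 109 and 105 CPM in culture 1 to 5. In vesicle culture 1 to 5 it was at 87.6, 99, 118, 97.2 and 94.1 CPM. Every cultured library was above every fresh one by a wide margin. The log2 fold change in culture was 3.40 (SE 0.20, adjusted p = 8.55e-09), and in vesicle culture against the same fresh libraries it was 3.38 (adjusted p = 8.16e-09). SLC1A4 (gene 101087055), an exchanger of alanine, serine and cysteine, was at 1.1, 0.763, 0.528, 0.404 and 1.03 CPM in the fresh libraries and at 6.38, 7.63, 17.3, 8.96 and 17.5 CPM in the cultures. Its vesicle cultures were at 9.45, 10.2, 8.86, 6.93 and 12.9 CPM. No cultured library came near the highest fresh value, and cultures 3 and 5 were the highest. SLC1A4 rose by 3.90 on the log2 scale in culture (SE 0.37, adjusted p = 6.46e-07) and by 3.64 in vesicle culture (adjusted p = 1.12e-06).

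The glutamate and aspartate carrier SLC1A1 (gene 101099844) also rose. Its levels were 4.96, 4.58, 0.88, 3.29 and 1.75 CPM in fresh tissue and 19.1, 26.7, 16.9, 21.7 and 57.5 CPM in culture. With vesicles they were 28.8, 33, 27, 18.8 and 42.5 CPM. Culture 5 was well above the other cultures, and the groups of cultured and fresh libraries did not overlap. The log2 fold change was 3.19 (SE 0.45, adjusted p = 3.09e-05) in culture, 2.76 without culture 5, and 3.27 in vesicle culture (adjusted p = 2.56e-05). SLC1A2, another glutamate carrier and best known from astrocytes, had 47 counts over the 5 cultures and 2 over the fresh libraries, both in fresh 2. The ratio of scaled counts was 22.8, with a 95% counting interval of 5.97 to 194 (adjusted p = 0.0045). Its fitted log2 fold change was 4.21, and 6.29 without fresh 2. In vesicle culture, SLC1A2 had 93 counts, 41.9 times the scaled fresh count (11.3 to 351). Against fresh tissue its fitted value there was 5.14, and 7.23 without fresh 2. SLC1A3, a glutamate carrier of glia and other cells, was at 0.176 to 1.04 CPM in fresh tissue and 0.260 to 5.53 in culture and was not called (1.40, adjusted p = 0.142). Without culture 2 its value was 0.11 (adjusted p = 0.897). SLC1A7, a glutamate carrier known from the retina, was not called either (-0.07, adjusted p = 0.917; 0.12 without fresh 4).

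**Figure D2:**
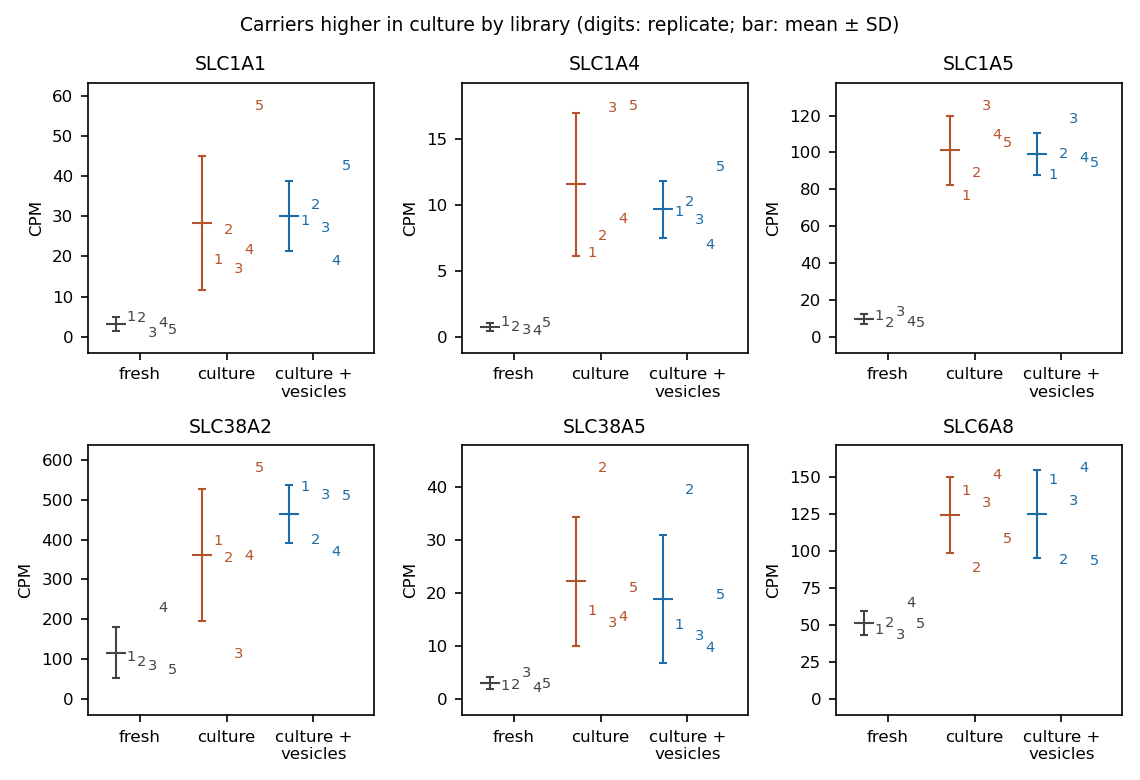
Levels in CPM on linear axes for 6 transporters higher in culture, 1 panel per gene, in fresh tissue, culture and culture with vesicles. Digits are replicate numbers and bars are mean ± SD (n = 5). SLC1A5 runs from 7.16 to 13.4 CPM in the fresh libraries and from 76.3 to 125 in culture, with the vesicle cultures at 87.6 to 118.

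The 2 heavy chains moved in opposite directions. SLC3A2 (gene 101093546), the partner of most SLC7A light chains, was at 76.2, 75.5, 85.5, 84 and 72.8 CPM in fresh tissue and at 125, 132, 183, 160.1 and 136 CPM in culture. Its vesicle cultures were at 137, 131, 127, 152 and 123 CPM. The fresh values lay close together and below every cultured one, with culture 3 the highest. SLC3A2 rose by 0.90 in culture (SE 0.12, adjusted p = 1.49e-05) and by 0.77 in vesicle culture (adjusted p = 6.75e-05). SLC3A1 (gene 101094584), the heavy chain of the cystine and dibasic amino acid carrier of kidney and intestine, was at 0.527, 0.281, 1.01, 1.21 and 1.6 CPM in fresh tissue. It was at 0.276, 0, 0.26, 0.24 and 0.422 CPM in culture and 0.178, 0.0434, 0.162, 0.748 and 0.507 CPM in vesicle culture. Fresh 2 overlapped the cultures, and the other 4 fresh libraries were higher than all 5 cultures. SLC3A1 fell by 1.93 in culture (SE 0.75, adjusted p = 0.0405). The call was lost with limma-voom (adjusted p = 0.0576), without the filter (0.0689) and on leaving out fresh 3, 4 or 5 or culture 1, 2, 3 or 4 (0.0576 to 0.104). With replicate number as a block the value in culture was -1.99 (adjusted p = 0.00556), and SLC3A1 was lower in culture in all 5 same-numbered pairs. In vesicle culture its difference of -1.48 was not called (adjusted p = 0.0992) but was with replicate number as a block (adjusted p = 0.0132), with limma-voom (0.0372) and without vesicle culture 4 (0.042). SLC3A1 overlaps PREPL in the RefSeq annotation, and the strand setting of the counts is not known here.

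Of the light chains that pair with SLC3A2, the large neutral amino acid carrier rose and the cystine carrier fell. SLC7A5 (gene 101090409), which takes up leucine and other large neutral amino acids, was at 52.5, 80.3, 52.7, 45.8 and 56.8 CPM in fresh tissue and at 159, 149, 256, 284 and 183 CPM in culture. In vesicle culture it was at 260.2, 224, 203, 277 and 154 CPM. The lowest cultured library was well above the highest fresh one, fresh 2. The log2 fold change was 1.84 (SE 0.22, adjusted p = 6.10e-06) in culture and 1.96 in vesicle culture (adjusted p = 3.41e-06). SLC7A11 (gene 101099374), which imports cystine in exchange for glutamate, was at 109, 140.5, 135, 193 and 164 CPM in fresh tissue. It was at 45.8, 61.4, 17.4, 56.7 and 71.8 CPM in culture and 44.1, 57.8, 50.5, 39.2 and 52 CPM in vesicle culture. All fresh libraries were above all cultured ones, and culture 3 was the lowest. SLC7A11 fell by 1.55 in culture (SE 0.28, adjusted p = 2.82e-04), by 1.32 without culture 3, and by 1.61 in vesicle culture (adjusted p = 2.14e-04).

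**Figure D3:**
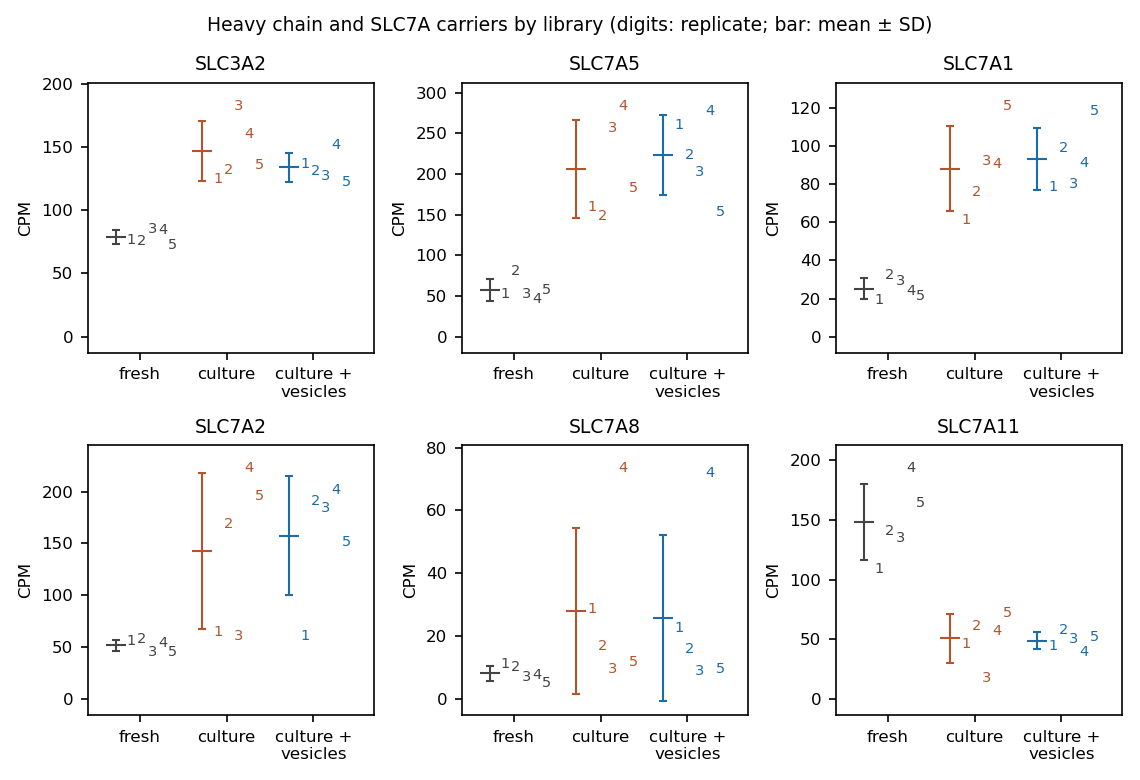
Levels in CPM on linear axes of the heavy chain SLC3A2 and of 5 SLC7A carriers in fresh tissue, culture and culture with vesicles. Digits are replicate numbers and bars are mean ± SD (n = 5). SLC3A2, SLC7A5 and SLC7A1 are lowest in fresh tissue, SLC7A11 is highest there, and replicate 4 of both cultures is far above the rest for SLC7A8 (73.4 and 72.1 CPM).

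SLC7A8 (gene 101094106), a broad neutral amino acid exchanger, owed much of the size of its fitted rise to 1 replicate number. Fresh tissue was at 11.1, 10.1, 6.95, 7.68 and 5.0 CPM, culture at 28.8, 16.9, 9.4, 73.4 and 11.7 CPM and vesicle culture at 22.5, 16, 8.98, 72.1 and 9.64 CPM. Replicate 4 of both cultures was far above the rest, and culture 3 and vesicle cultures 3 and 5 lay within the fresh range. The value in culture was 1.78 (SE 0.63, adjusted p = 0.0255), but 1.03 without culture 4 (adjusted p = 0.129), and the call was also lost without fresh 3 (0.0529) or fresh 5 (0.0592). With replicate number as a block the value in culture was 1.29 (adjusted p = 0.00711), and SLC7A8 was higher in culture in all 5 same-numbered pairs. In vesicle culture the value without that block was 1.66 (adjusted p = 0.0354), and 0.79 without vesicle culture 4 (adjusted p = 0.219). That call was also lost with limma-voom (adjusted p = 0.175) and without fresh 2, 3, 4 or 5 (0.0505, 0.0692, 0.0643 and 0.0777). SLC7A6 and SLC7A7, which exchange cationic for neutral amino acids with sodium, were not called, with log2 fold changes of -0.12 (95% interval -0.82 to 0.59) and 0.19 (-0.52 to 0.91). Without culture 3 the value of SLC7A6 was 0.12. SLC7A13, a light chain known from the kidney, had 118 counts over the fresh libraries and 0 over the 5 cultures and over the 5 vesicle cultures. Its fresh levels were 1.18, 0.763, 1.19, 1.44 and 1.03 CPM. Against a floor of 3 counts over a group, SLC7A13 was at least 40.6-fold lower in culture (adjusted p = 9.24e-05) and at least 43.7-fold lower in vesicle culture (adjusted p = 8.72e-05). SLC7A9, a light chain that pairs with SLC3A1, was too low to test.

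The cationic amino acid carriers, which take up arginine and lysine, did not move together. SLC7A1 (gene 101089066), the widely expressed member, was at 19.2, 32.1, 29.4, 23.8 and 21.4 CPM in fresh tissue and at 61.4, 76.1, 92.2, 90.4 and 121 CPM in culture. The vesicle cultures were at 78.7, 98.8, 80.1, 90.9 and 118 CPM. All cultured libraries lay above all fresh ones, and replicate 5 was the highest of both cultures. SLC7A1 rose by 1.81 (SE 0.19, adjusted p = 2.15e-06) and 1.89 (adjusted p = 1.38e-06) in culture and vesicle culture. SLC7A2 (gene 101101305), known from liver and activated macrophages, was at 55.4, 57.3, 45.4, 54.4 and 45.7 CPM in fresh tissue and 64.3, 168, 61, 223 and 196 CPM in culture. With vesicles it was at 60.3, 191, 184, 201 and 151 CPM. Cultures 1 and 3 and vesicle culture 1 lay just above the fresh range, and the other cultured libraries were far above it. The log2 fold change was 1.46 (SE 0.37, adjusted p = 0.00348) in culture and 1.61 in vesicle culture (adjusted p = 0.00188).

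SLC7A3 (gene 101089172), a cationic carrier known from the brain, went the other way. Its levels were 2.55, 2.09, 1.98, 4.91 and 3.5 CPM in fresh tissue, 0.355, 0.137, 0, 0 and 0.474 CPM in culture and 0.178, 0.434, 0.202, 0.394 and 0.451 CPM in vesicle culture. Each cultured library was below each fresh one. SLC7A3 fell by 3.93 in culture (SE 0.73, adjusted p = 3.22e-04) and by 3.17 in vesicle culture (adjusted p = 0.0012). SLC7A14, a member of the same branch, rose by 3.18 in culture (SE 0.76, adjusted p = 0.00252), from 0 to 0.693 CPM in fresh tissue to 1.14 to 8.40 CPM. Without culture 4, the highest library, the value was 2.52 (adjusted p = 0.00875). In vesicle culture it was 3.10 (adjusted p = 0.00302), and 2.31 without vesicle culture 4.

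The SLC38A family had members far apart in both directions. SLC38A2 (gene 101083348), a sodium-coupled carrier of small neutral amino acids, was at 105, 93.4, 83.1, 228 and 72.4 CPM in fresh tissue and at 396, 355, 113, 359.8 and 579 CPM in culture. In vesicle culture it was at 531, 400.0, 512, 369 and 508 CPM. Fresh 4 was above the other fresh libraries and also above culture 3, and the remaining cultured libraries were all higher than fresh tissue. SLC38A2 rose by 1.63 in culture (SE 0.37, adjusted p = 0.00158) and by 1.99 in vesicle culture (adjusted p = 3.57e-04). SLC38A5 (gene 101093166), which exchanges glutamine and other neutral amino acids with sodium and protons, was at 2.41, 2.61, 4.97, 2.14 and 2.78 CPM in fresh tissue. It was at 16.5, 43.6, 14.4, 15.6 and 21 CPM in culture and 13.9, 39.4, 11.8, 9.52 and 19.6 CPM in vesicle culture. Replicate 2 was the highest of both cultures, and no cultured library reached down to fresh 3, the highest fresh one. The log2 fold change of SLC38A5 was 2.89 (SE 0.43, adjusted p = 4.93e-05) in culture and 2.65 in vesicle culture (adjusted p = 1.02e-04). Replicate 2 of both cultures also had the highest summed level of 8 fibroblast markers, 12328 CPM in culture 2 and 8602 CPM in vesicle culture 2, against at most 2103 CPM in fresh tissue. Culture 3, with the next highest marker sum of the cultures (7399 CPM), was the lowest culture for SLC38A5. Of these markers 3 were higher and 1 was lower in culture, none was at 0 in any group, and their part in the SLC38A5 values was not tested. SLC38A4, a carrier of neutral and cationic amino acids known from liver and placenta, rose from 0 to 0.522 CPM to 0.415 to 2.13 CPM in culture (2.37, SE 0.78, adjusted p = 0.0178).

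SLC38A11 (gene 101100240), an uncharacterised member of the family, had almost no counts in cultured tissue. Its levels in fresh tissue were 15.8, 6.38, 21.8, 6.52 and 18.8 CPM, or 1493 counts in all. Over the 5 cultures it had 3 counts, all in culture 1, and over the 5 vesicle cultures 3 counts, all in vesicle culture 5. The scaled count was 513 times lower in culture (95% counting interval 175 to 2492, adjusted p = 1.24e-06) and 552 times lower in vesicle culture (189 to 2682, adjusted p = 1.16e-06). The fitted log2 fold change was -8.75 in culture and -11.27 without culture 1. In vesicle culture it was -8.77, and -11.31 without vesicle culture 5. SLC38A7 (gene 101089913), which exports glutamine from lysosomes, was at 43.3, 39.9, 43.6, 41.4 and 39.8 CPM in fresh tissue, 34.1, 25.6, 21.6, 37.5 and 30.2 CPM in culture and 30.1, 30.9, 28.7, 39.8 and 34.8 CPM in vesicle culture. The fresh values spanned a narrow range above every culture, and vesicle culture 4 reached almost up to them. SLC38A7 fell by 0.48 in culture (SE 0.15, adjusted p = 0.0118). In vesicle culture its value of -0.34 was not called (adjusted p = 0.0626), but it was with replicate number as a block (adjusted p = 0.0384), with DESeq2 (0.0151) and with limma-voom (0.0024). The SLC38A7 value was also called with relative log expression scaling (0.0297) and without culture 3, culture 4 or vesicle culture 4 (0.0184, 0.0396 and 0.0256).

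Several SLC38A values turned on culture 3, the library with few mitochondrial counts. SLC38A10 (gene 101096934) was at 54.5, 63.2, 54.4, 50.4 and 44.7 CPM in fresh tissue, at 50.6, 60, 231, 54.9 and 63.3 CPM in culture and at 53.2, 75, 63, 59.4 and 57.8 CPM in vesicle culture. Apart from culture 3, the highest library by far, the 3 groups overlapped. The difference in culture of 0.78 was not called (adjusted p = 0.0707). It was 0.11 without culture 3 (adjusted p = 0.45), and it was called without culture 1, 2 or 4 (adjusted p = 0.0374, 0.0480 and 0.0433). SLC38A9, the lysosomal arginine sensor, was at 0.934 CPM in culture 3 and 7.86 to 10.3 CPM in the other cultures, against 7.97 to 10.9 in fresh tissue, and was not called (-0.24, adjusted p = 0.622; 0.05 without culture 3). Without culture 3, SLC38A1, a carrier of small neutral amino acids, SLC38A6 and SLC38A8 were called. Their values were then 0.80 for SLC38A1 (adjusted p = 0.0157), 0.76 for SLC38A6 (4.65e-04) and -0.87 for SLC38A8 (0.0406). With culture 3 they were 0.59 (0.11), 0.53 (0.115) and -0.51 (0.264). Among the 49 tested transporters with a count in culture, 24 were lowest in culture 3 (49.0%, against 38.8% of all genes) and 8 were highest there (16.3%, against 32.6%).

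All 3 called members of the SLC36A family fell, and their smallest and largest changes were far apart. SLC36A1 (gene 101100108), a carrier of small neutral amino acids at lysosomes and the cell surface, was at 40.1, 32.4, 30.9, 50.2 and 34.7 CPM in fresh tissue and 21, 16.3, 16.7, 27 and 23 CPM in culture. Its vesicle cultures were at 23.7, 22.1, 20.1, 28.6 and 22.9 CPM. Every fresh library was above every cultured one, the nearest being fresh 3 and vesicle culture 4. SLC36A1 fell by 0.86 in culture (SE 0.17, adjusted p = 7.28e-04) and by 0.68 in vesicle culture (adjusted p = 0.00402). It overlaps FAT2 in the RefSeq annotation. SLC36A2 (gene 101100365), a high-affinity carrier of glycine and proline, was at 8.6, 19.4, 12.8, 11 and 9.23 CPM in fresh tissue, or 1340 counts in all. Over the 5 cultures it had 2 counts, both in culture 5, and over the vesicle cultures 11. The scaled count was 691 times lower in culture (95% counting interval 191 to 5712, adjusted p = 2.55e-07), and the fitted log2 value went from -8.99 to -11.12 without culture 5. In vesicle culture, SLC36A2 fell by 7.0 (SE 0.66, adjusted p = 5.58e-07). SLC36A3 (gene 101100619), the neighbouring gene, was at 0.439, 0.843, 1.41, 0.635 and 0.567 CPM in fresh tissue and had 4 counts in culture and 0 in vesicle culture, against 85 in fresh tissue. It fell by 4.25 in culture (SE 0.80, adjusted p = 8.32e-04), and was at least 31.5-fold lower in vesicle culture (adjusted p = 1.43e-04). SLC36A4, a carrier of proline and tryptophan, was at 22.3 to 37.6 CPM in fresh tissue and 6.64 to 38.5 in culture, with culture 3 the lowest, and was not called (-0.16, 95% interval -0.92 to 0.60; 0.09 without culture 3).

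**Figure D4:**
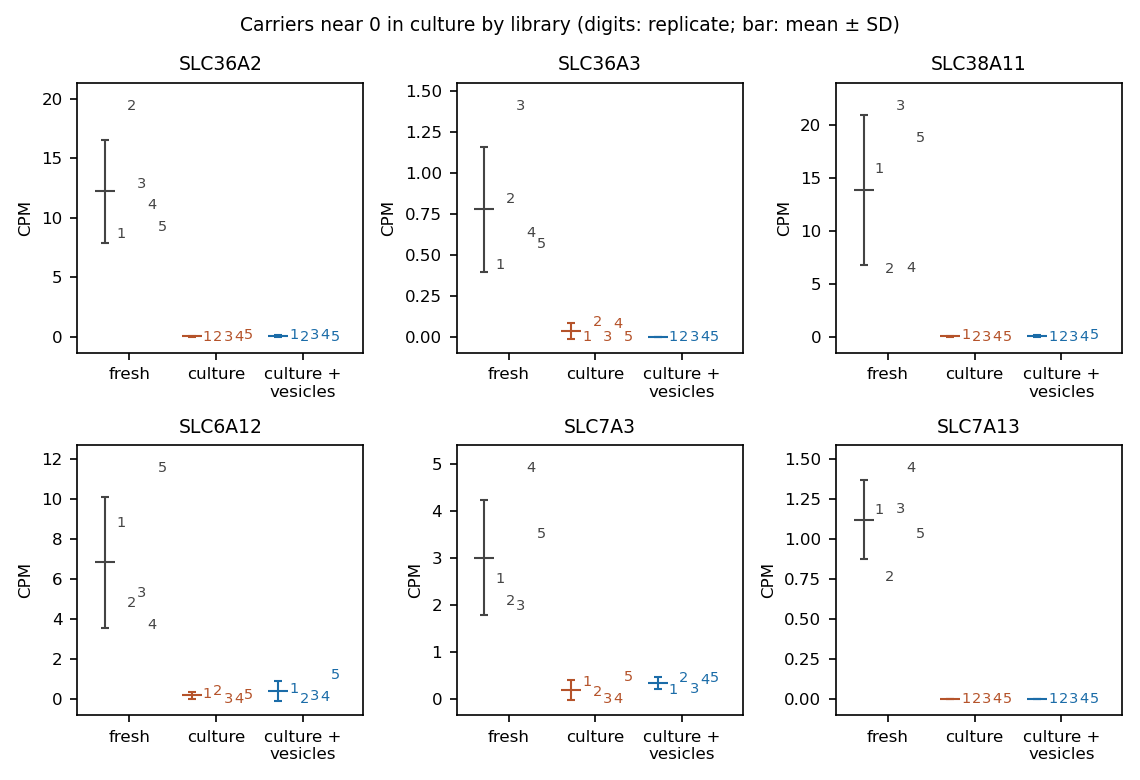
Levels in CPM on linear axes of 6 transporters near 0 in culture, 1 panel per gene, in fresh tissue, culture and culture with vesicles. Digits are replicate numbers and bars are mean ± SD (n = 5). SLC36A2 and SLC38A11 run from 8.6 to 19.4 and from 6.38 to 21.8 CPM in fresh tissue and stay below 0.17 CPM in all 10 cultured libraries.

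In the facilitative SLC43A family, SLC43A2 (gene 101100929), a carrier of large neutral amino acids, was the called member. It was at 31.1, 39.1, 33.7, 25.9 and 29.2 CPM in fresh tissue, 77.8, 38.6, 79.7, 76.3 and 53.6 CPM in culture and 70.5, 61.3, 65.5, 80.3 and 56.1 CPM in vesicle culture. Culture 2 lay within the fresh range, and the other cultured libraries were above it. SLC43A2 rose by 1.03 (SE 0.19, adjusted p = 3.09e-04) in culture and by 1.07 in vesicle culture (adjusted p = 2.40e-04). SLC43A1, with similar substrates, was not called (-0.32, 95% interval -1.02 to 0.37). SLC43A3, a carrier of purine nucleobases, was just short of the threshold in culture (0.90, adjusted p = 0.0524). It was called with DESeq2 (adjusted p = 0.0419) and with the replicate block (adjusted p = 0.0146). Leaving out fresh 2, culture 4 or culture 5 also gave a call (0.0395, 0.015 and 0.0344). In vesicle culture SLC43A3 was not called (0.65, adjusted p = 0.155), and was with the replicate block (adjusted p = 0.0389).

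Of the SLC6A carriers of osmolytes and creatine, those of creatine and taurine rose and that of betaine fell. SLC6A8 (gene 101087976), the creatine carrier, was at 46.4, 51.3, 43.4, 64.6 and 50.5 CPM in fresh tissue and 141, 88.8, 133, 152 and 108 CPM in culture. In vesicle culture it was at 148, 93.9, 134, 156 and 93.1 CPM. Replicates 1, 3 and 4 were the high ones in both cultures, and even the lowest cultured library was above the highest fresh one. SLC6A8 rose by 1.28 in culture (SE 0.19, adjusted p = 4.01e-05) and by 1.29 in vesicle culture (adjusted p = 3.84e-05). SLC6A6 (gene 101101373), the taurine carrier, was at 13.3, 13.6, 8.32, 7.91 and 8.04 CPM in fresh tissue, 11.4, 20.3, 21.1, 22 and 40.7 CPM in culture and 12, 19.4, 19.6, 22.3 and 42.8 CPM in vesicle culture. Replicate 1 of both cultures lay within the fresh range, and replicate 5 of both was far above it. The log2 fold change was 1.17 (SE 0.35, adjusted p = 0.0103) in culture, a call lost with limma-voom (adjusted p = 0.107), and 1.18 in vesicle culture (adjusted p = 0.0103). SLC6A12 (gene 101088338), the carrier of betaine and of the transmitter GABA, was at 8.82, 4.82, 5.28, 3.69 and 11.5 CPM in fresh tissue. It was at 0.236, 0.411, 0, 0 and 0.211 CPM in culture and 0.499, 0, 0.162, 0.118 and 1.18 CPM in vesicle culture. All cultured libraries were below the lowest fresh one, fresh 4. SLC6A12 fell by 5.27 in culture (SE 0.94, adjusted p = 2.37e-04) and by 4.15 in vesicle culture (adjusted p = 9.07e-04), where the value without vesicle culture 5 was -5.07.

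Among the SLC6A carriers of amino acids, the glycine carrier SLC6A9 (gene 101085226) rose and the branched-chain amino acid and proline carrier SLC6A15 (gene 101095111) fell. SLC6A9 was at 2.59, 4.54, 2.07, 2.42 and 2.63 CPM in fresh tissue, 8.71, 14.3, 6.64, 14.3 and 14 CPM in culture and 12.2, 20.7, 12.7, 7.99 and 14 CPM in vesicle culture. Fresh 2 was the highest of its group and still below every cultured library. SLC6A9 rose by 2.02 (SE 0.30, adjusted p = 5.21e-05) and 2.24 (adjusted p = 2.08e-05). SLC6A15 was at 40.5, 60.2, 51.9, 48.5 and 88.3 CPM in fresh tissue, 25.1, 26.4, 14.5, 42.1 and 40.5 CPM in culture and 31.6, 23.1, 38.6, 39.4 and 53.9 CPM in vesicle culture. Fresh 1, the lowest fresh library, lay below culture 4 and vesicle culture 5 (culture 5 was level with it), so the groups overlapped. SLC6A15 fell by 0.96 in culture (SE 0.29, adjusted p = 0.0116). In vesicle culture its value of -0.63 was not called (adjusted p = 0.0789), but it was with the replicate block (adjusted p = 0.0307), with DESeq2 (0.0423), with limma-voom (0.0316) and without culture 3 or vesicle culture 5 (0.0403 and 0.0354). SLC6A17 (gene 101081318), a neutral amino acid carrier of synaptic vesicles, was at 0.746, 0.963, 0.44, 0.404 and 1.8 CPM in fresh tissue, 1.81, 4.57, 3.01, 2.04 and 8.12 CPM in culture and 2.14, 9.03, 3.28, 2.83 and 11.8 CPM in vesicle culture. Replicates 2 and 5 were the highest in all 3 groups, and the lowest culture, culture 1, was close to the highest fresh library, fresh 5. SLC6A17 rose by 2.16 (SE 0.59, adjusted p = 0.00627) in culture, a call lost with limma-voom (adjusted p = 0.0545), and by 2.73 in vesicle culture (adjusted p = 0.00137).

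SLC6A14 (gene 101080769), a broad carrier of neutral and cationic amino acids, was at 0 counts in all 5 fresh libraries. It was at 0.158, 0.594, 1.4, 5.76 and 1.48 CPM in culture and 0.0714, 2.74, 5.91, 4.64 and 0.564 CPM in vesicle culture, so that every cultured library held it, at levels far apart. Against 3 counts over the fresh group, SLC6A14 was at least 69.8-fold higher in culture (216 counts, adjusted p = 0.0028) and at least 102-fold higher in vesicle culture (339 counts, adjusted p = 0.00179). The fitted log2 value in culture went from 8.41 to 7.34 without culture 4, and the call was lost with limma-voom (adjusted p = 0.0843). Culture 4 also had the highest sum of the 8 neutrophil markers, 1562 CPM against at most 839 in the other cultures. The vesicle cultures with the most SLC6A14, 3 and 4, had the highest sums of theirs, 1172 and 1418 CPM, against at most 9.12 in fresh tissue. Vesicle culture 1, with the next highest marker sum (865 CPM), had the least SLC6A14 of its group. Culture 1 had a higher marker sum than culture 3 (618 and 534 CPM) and less SLC6A14. Of 6 tested markers of this list 5 were higher and 1 was lower in culture. Of the 8 listed, 1 was at 0 in fresh tissue and 1 in vesicle culture. The part of these markers in the SLC6A14 values was not tested. SLC6A20, a proline carrier known from kidney and intestine, had 76 counts in culture and 3 in fresh tissue, all 3 in fresh 1. The ratio was 24.6 (95% counting interval 8.09 to 122, adjusted p = 0.00123), and the fitted log2 value went from 4.48 to 7.06 without fresh 1 and 3.53 without culture 5. In vesicle culture the ratio was 32.4 (10.8 to 160, adjusted p = 6.65e-04), and the fitted log2 value went from 4.83 to 7.41 without fresh 1. SLC6A16, whose substrate is not known, fell by 1.27 in culture (SE 0.32, adjusted p = 0.00357), from 1.36 to 2.11 CPM to 0.363 to 0.914. SLC6A7, a proline carrier of the brain, was not called (0.62, adjusted p = 0.496).

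The tested carriers of noradrenaline, dopamine and serotonin were not called in culture against fresh tissue. The noradrenaline carrier SLC6A2 was at 0.241 to 0.748 CPM in fresh tissue and 0.200 to 2.28 CPM in culture (0.77, 95% interval -0.78 to 2.32), and the dopamine carrier SLC6A3 at 0 to 1.08 CPM and 0.236 to 1.30 CPM (0.65, -1.20 to 2.50). These intervals span changes of more than 2-fold in at least 1 direction. The SLC6A2 value was 0.11 without culture 3 (adjusted p = 0.901) and -0.06 with limma-voom. The serotonin carrier SLC6A4 was at 2.41, 1.97, 2.2, 1.62 and 2.06 CPM in fresh tissue, 4.88, 4.02, 1.61, 2.8 and 1.95 CPM in culture and 6.31, 4.47, 3.84, 2.16 and 2.7 CPM in vesicle culture. The high cultured libraries were replicates 1 and 2. Its value in culture was 0.57 (adjusted p = 0.172). It rose by 0.93 in vesicle culture (SE 0.35, adjusted p = 0.0342), a call lost without fresh 2, 3, 4 or 5 or vesicle culture 1, 2 or 3 (adjusted p up to 0.121). Of 8 tested nerve and Schwann cell markers 1 was higher and 2 were lower in culture, and their sum was 90.2 to 154 CPM in fresh tissue and 69.7 to 108 in culture. Of 11 listed, NEFL was at 0 in fresh tissue, and no other was at 0 in a group.

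Vesicles against culture, the comparison the series was built for, gave no call. With edgeR, 0 of 50 transporters and 0 of 18038 genes (0%) passed, and at an unadjusted p under 0.05 there were 1 transporter and 183 genes (1.01% of all genes). DESeq2 also called 0 genes (269 and 1 transporter at an unadjusted p under 0.05), limma-voom 0 (248, no transporter) and edgeR with the replicate block 0 (206, no transporter). The median log2 difference over the transporters was 0.10. Between the 2 cultures the groups overlapped for each of the 50 transporters, against 0.0832% of all genes that did not overlap. SLC7A13 was at 0 in both and has no interval. For 22 of the other 49 the 95% interval lay within a 2-fold change either way, and for 8 within 1.5-fold, and the other intervals reach larger changes. These intervals are from the fit with group as the only term, so they do not use the replicate numbers as pairs.

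The 8 carriers within 1.5-fold all had many counts. SLC3A2 differed by -0.13 (95% interval -0.38 to 0.12), SLC38A7 by 0.14 (-0.17 to 0.45) and SLC36A1 by 0.18 (-0.19 to 0.55). SLC1A5 differed by -0.03 (-0.41 to 0.36), SLC6A8 by 0.01 (-0.39 to 0.40), SLC7A1 by 0.08 (-0.32 to 0.48), SLC7A5 by 0.12 (-0.34 to 0.57) and SLC43A2 by 0.03 (-0.37 to 0.43). The smallest p among the transporters belonged to 2 genes with hardly any counts in either culture and to SLC38A10. SLC36A3 had 0 counts with vesicles and 4 without, in cultures 2 and 4 (unadjusted p = 0.0385, adjusted p = 1). SLC36A2 had 11 counts with vesicles and 2 without, a ratio of 5.11 with a 95% counting interval of 1.12 to 47.4 (unadjusted p = 0.0612, adjusted p = 1). SLC38A10 differed by -0.58 (unadjusted p = 0.119), and by 0.11 without culture 3.

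**Figure D5:**
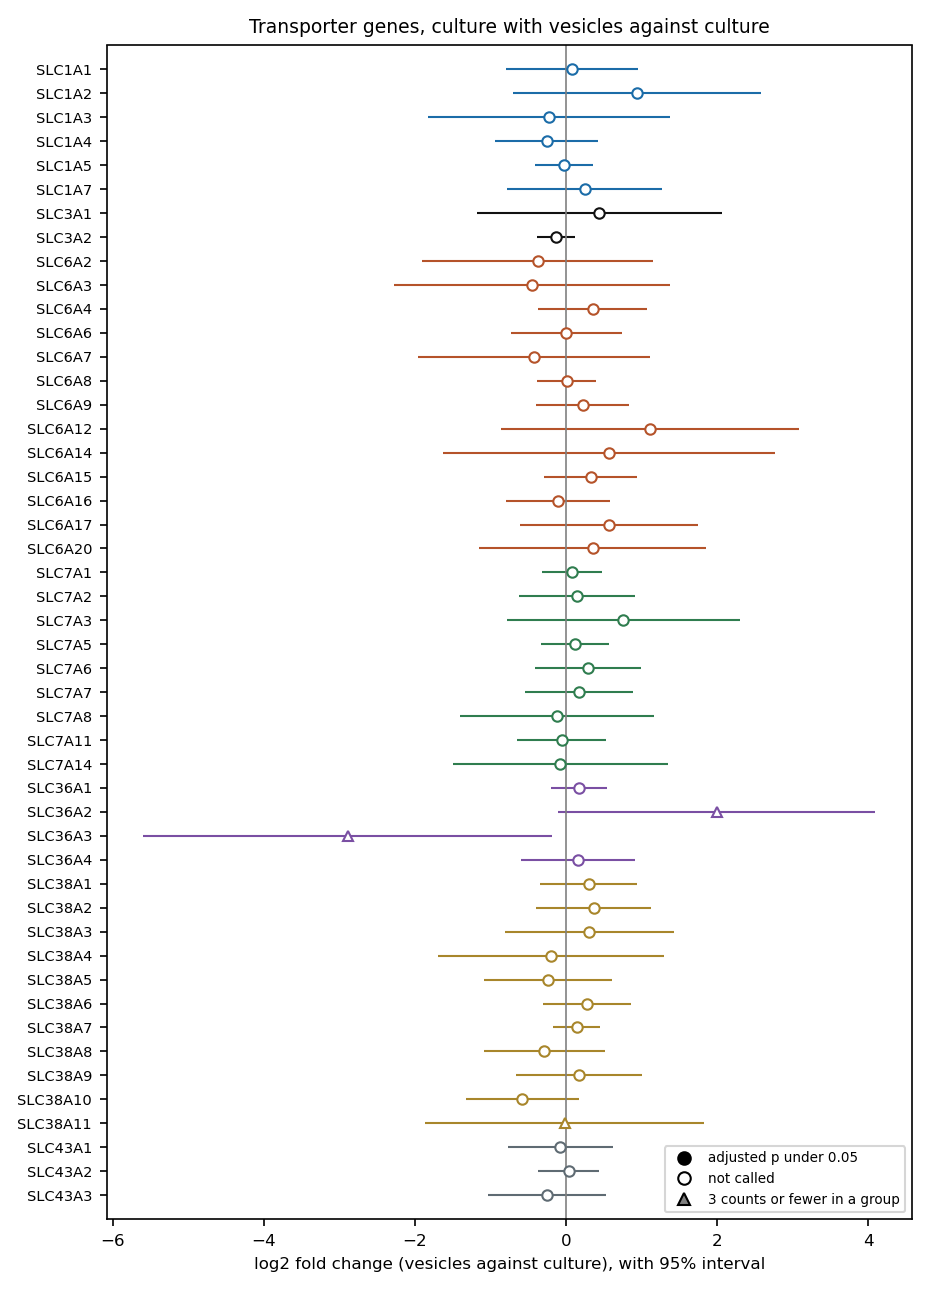
Log2 difference of culture with vesicles against culture for tested transporters with their 95% intervals (5 libraries in each group), by family, with triangles for genes at 3 counts or fewer in a group. No transporter was called, 22 intervals lie within a 2-fold change either way, and the widest belong to members with few counts. The intervals are from the fit without the replicate block.

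Against fresh tissue, 23 of 50 transporters were higher in vesicle culture (46%, against 27.4% of all genes) and 9 were lower (18%, against 25.5%). Called either way were 64% of the transporters and 52.9% of all genes. With replicate number as a block, 24 were higher and 13 lower (29.1% and 27.9% of all genes, and 57% either way). The median log2 fold change was 0.71 over the transporters and 0.0139 over all genes, and the levels did not overlap for 29 of 50 (58%, against 49.2%). The fresh libraries here are those of the comparison above, so neither is a repeat of the other. Calls differed between the 2 comparisons for SLC6A4, SLC38A1 and SLC38A6, called higher in vesicle culture and not in culture, and for SLC3A1, SLC6A15 and SLC38A7, called lower in culture and not in vesicle culture. None of the 6 was called between the 2 cultures. With the replicate block, SLC38A1 was also called in culture (adjusted p = 0.0463), and SLC6A4 and SLC38A6 were still not. SLC3A1, SLC6A15 and SLC38A7 were called in vesicle culture with that block, as given above. SLC38A1 was at 259, 179.8, 184, 289 and 260.4 CPM in vesicle culture and 76.2 to 184 CPM in fresh tissue and rose by 0.90 (SE 0.30, adjusted p = 0.0214), a call lost without fresh 3, fresh 5 or vesicle culture 4 (adjusted p = 0.0557, 0.0532 and 0.0521). SLC38A6 was at 12.3, 14.1, 13.7, 16.3 and 15 CPM in vesicle culture and 7.01 to 10.3 CPM in fresh tissue and rose by 0.80 (SE 0.28, adjusted p = 0.0225), a call lost without fresh 5 (adjusted p = 0.0507). SLC38A4 rose by 2.16 in vesicle culture (adjusted p = 0.0284), a call lost without vesicle culture 1 (adjusted p = 0.0775). SLC38A8, at -0.80 (adjusted p = 0.0883), was called with the replicate block (adjusted p = 0.0193), with limma-voom (0.0157) and without culture 3 (0.0434).

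Libraries with the same number in the 2 cultures resembled each other in these genes. Of 47 tested transporters with counts in all 3 groups, 27 were highest in the same number of both (57.4%, against 39.2% of all genes), and 12 were highest in number 4 (25.5%, against 9.33%). SLC38A3 (gene 101092169), a glutamine carrier of liver, kidney and brain, was at 18, 29.3, 31.7, 47 and 20.4 CPM in fresh tissue, 14.9, 52.2, 16.5, 94.6 and 22.8 CPM in culture and 16.6, 47.8, 34, 106 and 45.1 CPM in vesicle culture. Number 4 was the highest in all 3 groups, which overlapped, and SLC38A3 was not called (0.46 in culture, adjusted p = 0.484; -0.14 without culture 4). SLC1A7 (gene 101093035) was at 19.1, 11.9, 7.57, 21 and 11.2 CPM in fresh tissue, 17.4, 6.31, 10.3, 26.5 and 6.8 CPM in culture and 15.9, 9.77, 8.54, 37.6 and 8.23 CPM in vesicle culture. Numbers 4 and 1 were the highest in every group, and the groups overlapped.

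Genes that make, sense or use amino acids were counted from lists of related genes, to be read against the 28.7% of all tested genes that were higher in culture and the 25.6% that were lower. Of 20 cytosolic aminoacyl-tRNA synthetases, which load amino acids onto transfer RNA, 15 rose in culture and 1 fell (median 0.59, against 0.0351 over all genes), among them SARS1 at 1.45 (SE 0.10, adjusted p = 2.95e-08) and GARS1 at 1.40 (SE 0.14, adjusted p = 1.01e-06). Of 28 tested genes of amino acid sensing, 11 rose and 5 fell (median 0.17). TRIB3, a target of the amino acid stress response, was at 6.49 (SE 0.51, adjusted p = 1.04e-07) and ATF4, the transcription factor of that response, at 0.68 (SE 0.18, adjusted p = 0.00471). Of 28 genes of amino acid synthesis and breakdown, 9 rose and 10 fell (median -0.03). The arginase ARG2 was at 4.35 (SE 0.28, adjusted p = 1.54e-08), the asparagine synthetase ASNS at 0.90 (SE 0.23, adjusted p = 0.00373), the glutamine synthetase GLUL at 1.55 (SE 0.22, adjusted p = 3.47e-05) and CTH, which makes cysteine, at -2.36 (SE 0.38, adjusted p = 9.26e-05). ATF4, ASNS, GLUL and CTH were chosen after their values were seen.

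Of 13 genes of glutathione synthesis and turnover, for which SLC7A11 imports cystine, 7 rose and 2 fell (median 0.86), among them GGCT, which releases amino acids from their glutamyl form (-3.64, adjusted p = 8.12e-09) and the glutathione synthetase GSS (1.20, 4.11e-05). Of 16 tested carriers and partners of other families, 8 rose and 1 fell (median 0.62). SLC15A1, an intestinal carrier of short peptides, was at 4.51 (SE 0.76, adjusted p = 1.53e-04). Of 19 tested genes of creatine, taurine, betaine and transmitter metabolism, 4 rose and 10 fell (median -0.40). The dopa decarboxylase DDC was at -3.97 (SE 0.32, adjusted p = 1.25e-07) and CSAD, an enzyme of taurine synthesis, at -2.46 (SE 0.27, adjusted p = 2.34e-06). Of 8 genes of the osmotic response, 1 rose and 1 fell (median -0.13), with SLC5A3, the inositol carrier, at 0.94 (SE 0.28, adjusted p = 0.00946) and AKR1B1, which makes sorbitol, at -0.67 (SE 0.20, adjusted p = 0.0115). In vesicles against culture, 0 genes of each of the 7 lists were called by edgeR, by the edgeR fit with the replicate block, or at an unadjusted p under 0.05.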

How the data were processed

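The deposited file is 1 table of raw counts per gene for 15 libraries, made by the authors. Per the labels, the libraries are stranded and of messenger RNA (TruSeq kit), from RNA purified with a kit from Qiagen. The submitters' processing notes list StringTie 2.1.3b, the aligners Bowtie2 2.3.4.1 and HISAT2 2.1.0, and Trimmomatic 0.38, without saying what each did. The counting program, its strand setting, the build and the annotation are not given in these sources, so reads of overlapping genes or similar copies may not have been told apart. Of the transporters, 20 overlap another gene in RefSeq (F.catus_Fca126_mat1.0), 7 of them a protein-coding one. These 7 are SLC3A1, SLC6A9, SLC6A17, SLC7A2, SLC7A9, SLC7A10 and SLC36A1. All 38995 gene identifiers matched the RefSeq table, which was used for names and overlaps.

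The filterByExpr defaults (minimum count 10, minimum total 15) kept 18038 genes and left out 20957. The model was edgeR's quasi-likelihood fit (glmQLFit, glmQLFTest; edgeR 4.0.16, R 4.3.3) on TMM-scaled libraries, with group as the only term, all 15 libraries in 1 fit and 12 residual degrees of freedom. The test was 2-sided, with Benjamini-Hochberg adjustment over all tested genes and calls under 0.05. Fold changes are log2, first group over second, and SE is the absolute log2 fold change over the square root of F. Levels are CPM on the TMM-scaled library size and, with no gene lengths, were not compared between genes. Bounds take 3 counts over a group at 0, and counting intervals (exact binomial, 95%) cover counting error only. The fitting script was tested on simulated data.

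The members and lists were chosen with earlier results of these data known. By rule, 22 members are described by library: up to 3 per family and direction with the smallest adjusted p in culture against fresh (mean log2 CPM of 1 or more), the 3 with the smallest p in vesicles against culture, and 9 fixed ones. Another 8 (SLC6A12, SLC6A14, SLC7A3, SLC7A13, SLC38A11, SLC7A8, SLC38A3 and SLC1A7) were chosen after their values were seen, as were the levels of SLC6A4, SLC38A1 and SLC38A6. Gene lists name genes with the smallest adjusted p, except where stated. Some genes counted in the totals are not reported here one by one.

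Replicate numbers are shared by the groups. Deviations from group means correlated between same-numbered libraries at 0.181 to 0.602 in the 2 cultures and at 0.242 to 0.362 between vesicle culture and fresh tissue, so the numbers were taken as pairs there and the blocked value is given where it changes a call. The alternatives were that block, DESeq2 1.42.0, limma-voom with quality weights (limma 3.58.1), scaling by relative log expression, dropping the filter, requiring 1 CPM in 5 libraries, and leaving out each library.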

Additional observations from a re-analysis of the deposited data

Results flagged for a closer look

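In each group of 5 libraries, the gap of the highest or lowest value to its neighbour was set against the range of the group (Dixon's criterion at 95%). The values were the levels of the 30 transporters described by library, the summed level of each family and of all families, and the mitochondrial share. Leaving out groups with every library at 0, 113 groups of values were examined and 13 stood out. The criterion's rate of about 1 in 20 holds for independent, normally spread values. Family sums contain the same genes, and 8 of the 30 transporters were chosen after their values were seen. The 13 therefore cannot be set against that rate. Culture 3 stood out for its mitochondrial share, 0.179% against 6.23% to 7.48%, and for SLC38A10, at 231 CPM against 50.6 to 63.3 in the other cultures. Replicate 4 stood out for SLC6A14 in culture, at 5.76 CPM against at most 1.48, and in vesicle culture for SLC7A8, at 72.1 CPM against at most 22.5, and SLC1A7, at 37.6 CPM against at most 15.9. SLC7A8 and SLC1A7 were also highest in culture 4, where the gap was below the criterion for both.

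SLC38A2 was at 228 CPM in fresh 4, above 72.4 to 105 CPM in the other fresh libraries. SLC38A5 was at 4.97 CPM in fresh 3 against at most 2.78, and at 43.6 CPM in culture 2 against at most 21.0. SLC1A1 was at 57.5 CPM in culture 5 against at most 26.7, and SLC6A9 at 4.54 CPM in fresh 2 against at most 2.63. The other 3 were single libraries with a few counts in a group otherwise at 0: SLC36A2 in culture 5 at 0.105 CPM, SLC38A11 in culture 1 at 0.118 CPM and in vesicle culture 5 at 0.169 CPM. With every other library at 0, the gap equals the range whatever the level.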

How the results depend on the processing

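The counts of called transporters stayed within 1.5 times under the alternatives run: 18 to 22 higher and 9 to 12 lower in culture against fresh, and 19 to 24 higher and 8 to 13 lower in vesicle culture against fresh. Vesicles against culture gave 0 in each. No called fold change reversed. Of 32 called transporters, 27 kept their call wherever tested in culture against fresh, and 27 of 32 in vesicle culture against fresh; the report names the others. In culture against fresh, the replicate numbers were not taken as pairs. Same-number correlations there were 0.0326 to 0.344, with 4 of 5 libraries best with their own number and culture 3 the exception. The replicate block gave 22 higher and 12 lower there, with SLC38A1 (adjusted p = 0.0463) and SLC43A3 (adjusted p = 0.0146) added. It gave 24 higher and 13 lower in vesicle culture against fresh, 0 in vesicles against culture, 10438 called genes against 9786 in culture against fresh, and 10283 against 9549 in vesicle culture against fresh. Leaving out culture 3 gave 11090 called genes in culture against fresh, with 22 transporters higher and 12 lower. In vesicle culture against fresh it gave 11658 called genes, with 23 transporters higher and 12 lower. With limma-voom, SLC38A1, SLC38A6 and SLC38A8 were called in culture against fresh (adjusted p = 0.00875, 0.00344 and 0.0203). Depth limits the members with few counts: 3 counts over a group correspond to about 0.0280 CPM in fresh tissue and 0.0271 CPM in culture.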
